A study of Mus musculus with 30 samples.

Results

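The data describe how gene expression in the denervated spinal cord differed between 14 and 4 d after a cortical stroke. All animals of both time points that have a column of values were used, which gave 9 of the 29 animals measured, 5 at 14 d postinjury (dpi) and 4 at 4 dpi. All animals were adult female C57BL/6 mice. The stroke groups had received a photothrombotic stroke of the right sensorimotor cortex, in which light activates a dye in the blood and closes the cortical vessels, and the sham group had been operated on without a lesion. No transgenic line was used. RNA was taken from the intermediate laminae of cervical segments C5/C6 on the side that had lost its cortical input, dissected with blades, so each sample is a mixture of cell types. The labels hold 5 animals at 4 dpi, of which 1 (A9-3) has no column. The paper states that 1 sample of the 4 dpi group was dropped as an outlier of its expression tests, and does not name the animal. Animals are named here by their label, an A, a unit number and an animal number (A5-4). The 4 dpi animals carry units 9 and 10 and the 14 dpi animals units 5 and 6, so unit and time point cannot be told apart. Replicates were separate animals.

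Corticospinal axons run from the motor cortex to the cervical gray matter, where many end in the intermediate laminae on interneurons. When the cortical cell bodies die, their spinal axons and terminals degenerate. Microglia, the resident phagocytes of the CNS, sense such debris through complement and Fc receptors and are known to divide and to take it up. Astrocytes respond with more glial fibrillary acidic protein (*Gfap*), an intermediate filament, and later the remaining fibers can sprout into the vacated gray matter. The comparison of 14 with 4 dpi spans the time between the early response and the start of that growth.

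Values are normalized CPM that the authors rounded to 0.1, for 16995 genes. They are not counts, so the depth behind each value is unknown. Their sums differ between animals. The authors normalized with edgeR, and the edgeR option behind the unequal sums is not named in the sources used here. The values of an animal summed to 714597 to 948528 in the 4 dpi group and to 796704 to 2176008 in the 14 dpi group, while the median gene lay between 10.7 and 11.1 in all 9 animals. The 18S ribosomal RNA locus *Rn18s-rs5* accounted for much of that range. It had 20579.1, 114025.9, 18295.2 and 29279.1 at 4 dpi (A9-2, A9-4, A10-1 and A10-4) and 95113.7, 419049.7, 32753.5, 40690.7 and 817779.7 at 14 dpi (A5-1, A5-3, A5-4, A6-2 and A6-3), so A5-3 and A6-3 stood above every 4 dpi animal. Pairs of animals were correlated over all genes, although genes do not count as replicates. Pearson's r on the log2 scale was 0.984 to 0.991 between pairs of 14 dpi animals, 0.985 to 0.990 between pairs of 4 dpi animals and 0.981 to 0.992 between the groups. The tissue markers were present: *Slc17a6* and *Slc32a1*, the vesicular transporters for glutamate and GABA, had means of 176 and 94.8 at 4 dpi, and *Mbp*, a myelin protein, had 2432.

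Between 4 and 14 dpi, 3 genes fell and none rose. Log2(value + 0.5) was compared in 1 limma fit over all 29 animals with 1 mean per group, and significantly differentially expressed genes (SDEGs) had a Benjamini-Hochberg adjusted p under 0.05 over all genes and a fold change above 1.5 on this scale. Because of the added 0.5, fold changes of weakly expressed genes are too small. The genes that fell were *Rn7s6*, a copy of the 7SL RNA, *Mki67*, which encodes the proliferation antigen Ki-67, and *Vwf*, which encodes the von Willebrand factor of endothelial cells, together 0.0177% of the genes. With 0 genes, the share that rose was 0%. At an unadjusted limma p under 0.05, 1026 genes were lower at 14 dpi (6.04%) and 663 were higher (3.9%). In 219 genes every 14 dpi animal lay below every 4 dpi animal (1.29%), and in 231 every 14 dpi animal lay above (1.36%). The median log2 fold change of all genes was -0.01. The steps within this interval gave no SDEG in the same fit, with 495 genes at an unadjusted p under 0.05 between 4 and 7 dpi and 1010 between 7 and 14 dpi. These contrasts share animals with each other, and so do those with sham below, whose values are given side by side only.

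**Figure D1:**
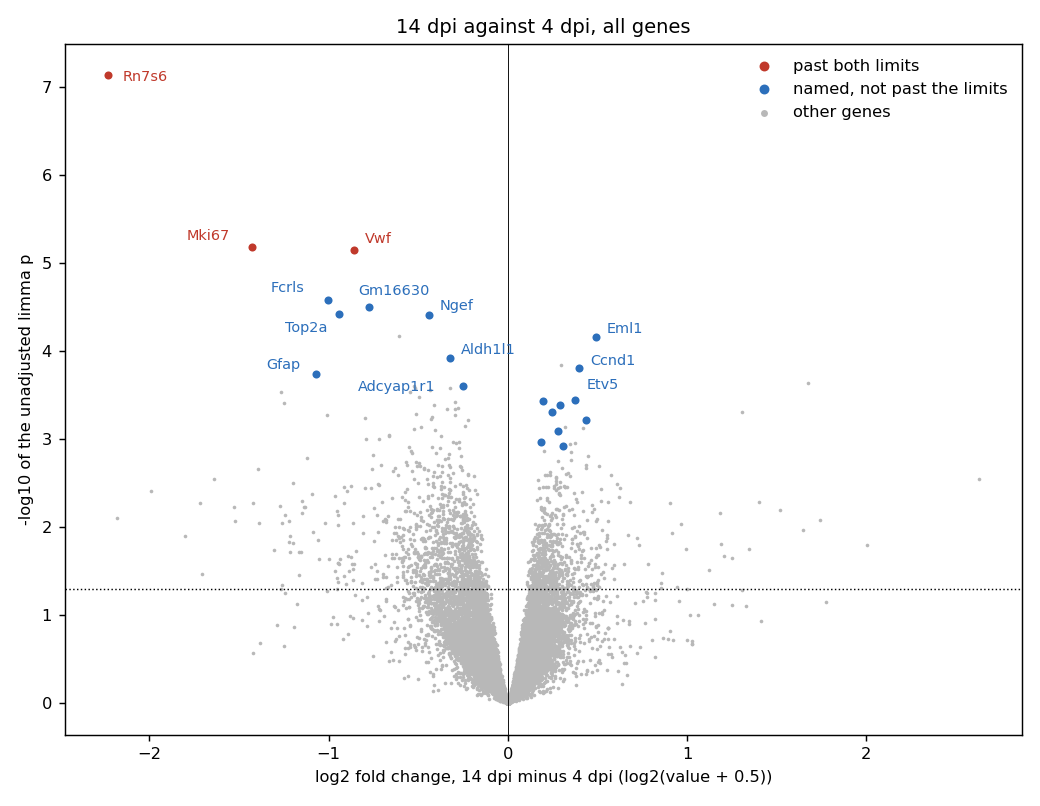
Log2 fold change of 14 dpi minus 4 dpi (x) against -log10 of the unadjusted limma p (y) for 16995 genes, with the dotted line at an unadjusted p of 0.05. Red points are the 3 genes past both limits, all lower at 14 dpi, and blue points are the other genes named by rule, 7 lower and 10 higher, none of which passed.

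*Mki67* is transcribed in dividing cells and is absent from resting ones. Its normalized CPM was 4.8, 5.6, 3.7 and 2.4 in the 4 dpi animals (A9-2, A9-4, A10-1, A10-4) and 0.7, 1.6, 0.9, 2 and 0.9 in the 14 dpi animals (A5-1, A5-3, A5-4, A6-2, A6-3). Every 14 dpi animal lay below every 4 dpi animal, although A6-2 and A10-4 were close. For this gene, *Rn7s6*, *Vwf*, *Top2a*, *Fcrls*, *Gfap* and *Aldh1l1* the naming rule required such a lack of overlap, so it adds no support. The mean fell from 4.12 ± 1.39 (SD, n = 4) to 1.22 ± 0.554 (SD, n = 5), or by 1.43 ± 0.54 on the log2 scale (95% interval, limma adjusted p = 0.0403, exact permutation p = 0.0159). The exact permutation test, taken in both directions, cannot give less than 0.0159 with 5 against 4 animals. Every gene without overlap gets this value, so it only restates the lack of overlap. The sham mean was 1.36 (range 0.9 to 2) and the 7 dpi mean 1.38 (range 0.7 to 2.6), with A7-3 at 7 dpi above A10-4 at 4 dpi. All 4 animals at 4 dpi exceeded the highest sham animal, and none at 14 dpi did. The call was lost without A9-2 (adjusted p = 0.137) and also without A9-4, A5-1, A5-3, A5-4 or A6-3, each left out in turn. It was also lost under 8 of the other alternatives, among them the fit of the 9 animals alone, quantile normalization and *Rn18s-rs5* as a covariate (limma adjusted p = 0.248).

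Some other genes of the division cycle were also lower at 14 dpi, but did not pass the adjusted limit. *Top2a* (which shares 122 bases with the small RNA gene *Gm23451*), the topoisomerase that untangles chromosomes before mitosis, had 4, 5.5, 3.1 and 2.8 at 4 dpi and 1.6, 1.8, 1.3, 1.9 and 2 at 14 dpi, without overlap (log2 fold change -0.94, limma adjusted p = 0.0946). *Cenpf*, a protein of the kinetochore, was 3.1 to 4.5 at 4 dpi and 1.4 to 2.4 at 14 dpi, also without overlap (log2 fold change -0.75, limma adjusted p = 0.359). *Cdk1*, the kinase that starts mitosis, ranged from 1 to 1.5 at 4 dpi and from 0.3 to 1 at 14 dpi, with a log2 fold change of -0.62. *Tpx2*, a spindle assembly factor, differed by -0.42. In the proliferation list 17 of 21 genes were measured. Of these, 1 was an SDEG and 5 (29.4%, beside 6.04% of all genes) were lower at an unadjusted p under 0.05, 13 had a log2 fold change below 0, none was higher at that p, and the list median was -0.13. Relative to all genes the median was -0.25 without A5-3, -0.11 without A9-4, and -0.052 with the motor neuron level of each animal as a covariate, an alternative chosen after the values were seen. The 4 other nominally lower genes are thus the ones named above. Of the DNA replication genes, *Pcna*, *Mcm4* and *Mcm5* lay above 0 (0.06 to 0.10). *Mcm2*, *Mcm3*, *Mcm6* and *Mcm7* ranged from -0.21 to -0.02, and none of these replication genes had an unadjusted p under 0.05. The precision of *Cdk1* is limited, as its 14 dpi values of 0.3 to 1 were rounded to 0.1.

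Promoters of 3 of these genes are printed, those in which both motifs described below occurred. *Cenpf*, also lower, is given by its motif counts only. Each sequence is the 250 bases before the transcription start of RefSeq on GRCm38.p6, and all 3 lie on the minus strand, *Mki67* at chr7:135716380-135716629, *Top2a* at chr11:99024190-99024439 and *Cdk1* at chr10:69352913-69353162. Capitals mark 2 motifs searched on both strands, CCAAT (or its reverse, ATTGG), the box bound by the factor NF-Y, and TTTGAA (or TTCAAA), the letters of the cell cycle genes homology region.
Mki67: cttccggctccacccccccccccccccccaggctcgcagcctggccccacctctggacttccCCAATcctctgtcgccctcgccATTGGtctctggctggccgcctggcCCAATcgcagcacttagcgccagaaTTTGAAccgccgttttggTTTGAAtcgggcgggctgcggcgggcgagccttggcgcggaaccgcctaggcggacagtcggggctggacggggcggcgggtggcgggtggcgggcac
Top2a: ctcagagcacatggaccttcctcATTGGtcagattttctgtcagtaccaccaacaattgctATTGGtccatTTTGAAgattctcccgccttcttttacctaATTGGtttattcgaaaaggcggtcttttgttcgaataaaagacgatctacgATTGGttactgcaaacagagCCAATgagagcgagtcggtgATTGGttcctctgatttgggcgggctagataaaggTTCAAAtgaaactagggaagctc
Cdk1: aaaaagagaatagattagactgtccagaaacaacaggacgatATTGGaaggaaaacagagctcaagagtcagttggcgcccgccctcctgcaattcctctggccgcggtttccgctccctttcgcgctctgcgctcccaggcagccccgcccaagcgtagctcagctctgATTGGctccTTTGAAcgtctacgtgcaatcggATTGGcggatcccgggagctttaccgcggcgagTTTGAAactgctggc
*Mki67* and *Cdk1* held 3 CCAAT boxes each and *Top2a* held 6, and each of the 3 promoters held TTTGAA at 2 places. The nearest TTTGAA started 98, 23 and 15 bases upstream of the start in *Mki67*, *Top2a* and *Cdk1*. *Cenpf* held 2 CCAAT boxes and no TTTGAA in this window. Of 32851 mouse promoters of the same length, 33.8% held CCAAT, 16% held TTTGAA and 5.5% held both, and 2.8% held at least 3 CCAAT boxes. A match of letters is a description and does not show that a factor was bound.

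*Vwf* encodes a clotting glycoprotein made by the endothelial cells of vessels. It had 11.9, 10.5, 10.5 and 14.2 at 4 dpi and 7.5, 5.2, 6, 5.4 and 7.3 at 14 dpi. Animals of both groups did not overlap, and the mean fell from 11.8 ± 1.75 (SD, n = 4) to 6.28 ± 1.07 (SD, n = 5), a log2 fold change of -0.86 ± 0.32 (95% interval, limma adjusted p = 0.0403). The sham mean of 8.16 and the 7 dpi mean of 9.14 lay in between. The call held without A10-1 or A5-1 and was lost when any 1 of the 7 other animals was left out. It was also lost under 10 of the other alternatives, among them the fit of the 9 animals alone, quantile normalization, median centring, *Rn18s-rs5* as a covariate (limma adjusted p = 0.231) and the length and GC correction (0.093). *Pecam1* and *Cldn5*, which encode an adhesion molecule and a tight junction protein of the same cells, had log2 fold changes of 0.11 and -0.07. In the endothelial and pericyte list of 20 genes 3 (15%, beside 6.04% of all genes) were lower at an unadjusted p under 0.05, *Vwf*, the pericyte channel subunit *Abcc9* (-0.34) and the glucose transporter *Slc2a1* (-0.23), while 12 lay above 0 and the median was 0.03, below that of all genes without A9-2 or A6-3. *Stab1*, a scavenger receptor chosen after its values were seen, was 8.3 to 16.3 at 4 dpi and 7.1 to 8.5 at 14 dpi (log2 fold change -0.61, limma adjusted p = 0.129).

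Genes of microglia and phagocytes lay lower at 14 dpi, with medians of -0.16 to -0.34 over 4 lists, but no member passed the adjusted limit. Without A5-3 and A6-3, the 14 dpi animals high in *Rn18s-rs5*, the medians were -0.14 for homeostatic genes, -0.13 for activated genes, -0.28 for Fc receptors and -0.13 for complement. With *Rn18s-rs5* as a covariate they were -0.16, -0.10, -0.32 and -0.12, and the part of ribosomal RNA in these lists was not tested. The strongest was *Fcrls*, an Fc receptor-like gene that marks resident microglia. It had 7.5, 12.3, 10.9 and 18.4 at 4 dpi and 5.8, 4.8, 5.9, 5.2 and 6.3 at 14 dpi. Every 14 dpi animal lay below every 4 dpi animal and within the sham range of 4.7 to 6.4 (log2 fold change -1.004, limma adjusted p = 0.0946). *Csf1r*, whose exons overlap those of *Hmgxb3* on the other strand, is the receptor that keeps microglia alive. It had 40.7, 56.1, 49.6 and 62.2 at 4 dpi and 39.8, 37.2, 40.7, 46.3 and 33 at 14 dpi. Its groups overlapped, and the 14 dpi mean of 39.4 remained above the sham mean of 30.7 (log2 fold change -0.39, limma adjusted p = 0.371). *Olfml3*, a secreted microglial protein, differed by -0.52. In contrast, the identity genes *P2ry12* and *Tmem119* had log2 fold changes of -0.05 and 0.08. *Cx3cr1* had -0.15, or -0.25 to -0.043 with 1 animal left out. Of 16 homeostatic genes 13 lay below 0, with a median of -0.16, and 3 (18.8%, beside 6.04% of all genes) were lower at an unadjusted p under 0.05.

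The receptors that bind antibody and the adaptors behind them gave the lowest median of these lists, -0.34, and all 8 measured members lay below 0. *Fcgr3*, a low-affinity IgG receptor, had 4.8, 7.6, 6.2 and 8.6 at 4 dpi and 3.4, 3.4, 4.2, 4.5 and 3.8 at 14 dpi. Animals of both groups did not overlap (log2 fold change -0.72, limma adjusted p = 0.32), yet all 5 animals at 14 dpi still exceeded the highest sham animal. *Syk*, the kinase that these receptors signal through, differed by -0.44 and *Inpp5d*, the phosphatase that limits them, by -0.52. *Fcgr2b*, the inhibitory IgG receptor, had means of 3.05 and 2.82 (log2 fold change -0.06).

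Complement marks debris and synapses for uptake. Its starter subunits *C1qa*, *C1qb* and *C1qc* had log2 fold changes of -0.28, -0.48 and -0.44, all with overlapping animals. With 1 animal left out, *C1qa* ranged from -0.47 to -0.13, *C1qb* from -0.67 to -0.33 and *C1qc* from -0.68 to -0.26. *C1qa* had means of 10.4 in sham, 20.6 at 4 dpi and 16.6 at 14 dpi. *Itgb2* and *Itgam*, the chains of complement receptor 3, differed by -0.68 and -0.32, both at an unadjusted limma p under 0.05. *C4b* differed by -0.29 and *C3* by 0.07. The regulator *Cd59a*, which blocks the final lytic pore, went the other way, with 0.44. Of 14 measured genes 9 lay below 0, 3 were nominally lower (21.4%, beside 6.04% of all genes) and 1 higher (7.14%, beside 3.9%), and the median was -0.28, or -0.13 without A5-3 and A6-3. Set against all genes it was -0.37 without A9-2 and -0.14 without A10-4.

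Among 27 genes of activated microglia and phagocytes 22 lay below 0, with a median of -0.19. At an unadjusted p under 0.05, 6 (22.2%, beside 6.04% of all genes) were lower and 1 (3.7%, beside 3.9%) was higher. The median relative to all genes was -0.32 without A9-2 and -0.10 without A10-4. *Mpeg1*, a pore-forming protein of phagocytes, had 11.4, 17.5, 16.7 and 27.5 at 4 dpi and 13, 10.1, 11.6, 13.4 and 9.6 at 14 dpi (log2 fold change -0.59). *Grn*, which encodes the lysosomal protein progranulin, had 16.1, 26.4, 19.1 and 32.7 against 15.8, 14.2, 16.4, 16.5 and 14.8 (-0.54). In both genes A10-4 was highest and A9-2 lowest at 4 dpi, and A9-2 overlapped the 14 dpi animals. *Cd52* differed by -0.86 at values of 2.4 or less. *Trem2* and *Clec7a*, receptors of the disease-associated microglial state, had -0.21 and -0.52 with overlapping groups. Leaving out 1 animal moved *Trem2* between -0.37 (without A9-2) and -0.038 (without A10-4) and *Clec7a* between -0.87 (without A10-1) and -0.21 (without A10-4). *Spp1*, which encodes osteopontin and is also made by motor neurons, was higher by 0.38. The pan-leukocyte phosphatase *Ptprc* differed by -0.65, while the blood leukocyte list as a whole had a median of -0.01 over the 6 of 11 genes measured. In bulk tissue, fewer cells of a type and less RNA per cell cannot be told apart.

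The study named 13 immune genes for the early phase, a list chosen on these samples and so no independent evidence of direction. From 4 to 14 dpi 11 of them lay below 0, with a median of -0.39, and 4 (30.8%, beside 6.04% of all genes) were nominally lower, *Fcgr3*, *Csf1r*, *Grn* and *Mpeg1*. *Cd74* and *Lag3* lay above 0, with 0.33 and 0.05. The median was -0.15 without A5-3 and A6-3 and -0.16 with *Rn18s-rs5* as a covariate, and it lay 0.21 to 0.50 below that of all genes when 1 animal was left out. Against sham the median of the 13 genes was 0.92 at 4 dpi, 0.47 at 7 dpi and 0.64 at 14 dpi. The mean level of the list over its genes, as log2 above the sham mean, was 0.59 to 1.46 in the 4 dpi animals and 0.43 to 0.86 in the 14 dpi animals, so the groups overlapped and all 9 animals lay above the sham range, which ended at 0.12. Interferon-stimulated genes had a median of -0.20 (15 of 18 below 0), with *Irf7*, a master regulator of the response, nominally lower (-0.43) and *Ifit2* nominally higher (0.24), each 5.56% of the list beside 6.04% lower and 3.9% higher over all genes. That median was -0.07 without A5-3 and A6-3 and -0.06 with *Rn18s-rs5* as a covariate, and without A6-3 alone it lay at -0.086 relative to all genes. Genes of antigen presentation had -0.10 (7 of 11 below 0) with none at an unadjusted p under 0.05 in either direction. Their median was -0.03 without A5-3 and A6-3 and -0.02 with *Rn18s-rs5* as a covariate, and relative to all genes it was -0.16 without A9-2 and -0.035 without A6-3.

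*Gfap* was the astrocyte gene with the largest difference. It had 277.5, 330.6, 405.2 and 584.3 at 4 dpi and 174.7, 176.5, 203.9, 229.6 and 141.4 at 14 dpi. Animals of both groups did not overlap, and the 14 dpi mean of 185 was close to the sham mean of 183, although the sham animals themselves spread from 116.9 to 303.3 (log2 fold change -1.07 ± 0.51, 95% interval, limma adjusted p = 0.236). *Aldh1l1*, a folate enzyme used to mark astrocytes, was 45.9 to 52 at 4 dpi and 35.1 to 42.2 at 14 dpi, again without overlap (-0.32, limma adjusted p = 0.201). The rule that named *Gfap* and *Aldh1l1* required this. *Osmr*, a receptor for cytokines of the interleukin-6 family, differed by -0.48 and *Aqp4*, the water channel of astrocyte endfeet, by -0.25. *Vim*, the filament protein that usually accompanies *Gfap*, did not differ beyond the spread (-0.08), and the small heat shock protein *Hspb1* was higher by 0.92. Of 14 reactive genes 11 lay below 0 with a median of -0.08, and of 13 homeostatic genes 8 lay below 0 with a median of -0.11. Measured from the median of all genes, the reactive median was -0.18 without A6-3 and -0.034 without A5-3. On the same scale the homeostatic median was -0.14 without A10-4 and -0.069 without A9-4. It was -0.042 with the length and GC correction and -0.041 with *Rn18s-rs5* as a covariate. In the homeostatic list 3 genes (23.1%, beside 6.04% of all genes) were nominally lower and 2 (15.4%, beside 3.9%) higher, *S100b* (0.35), a calcium-binding protein, and *Glul* (0.25), which encodes glutamine synthetase. Genes of this cell type thus lay on both sides of 0.

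**Figure D2:**
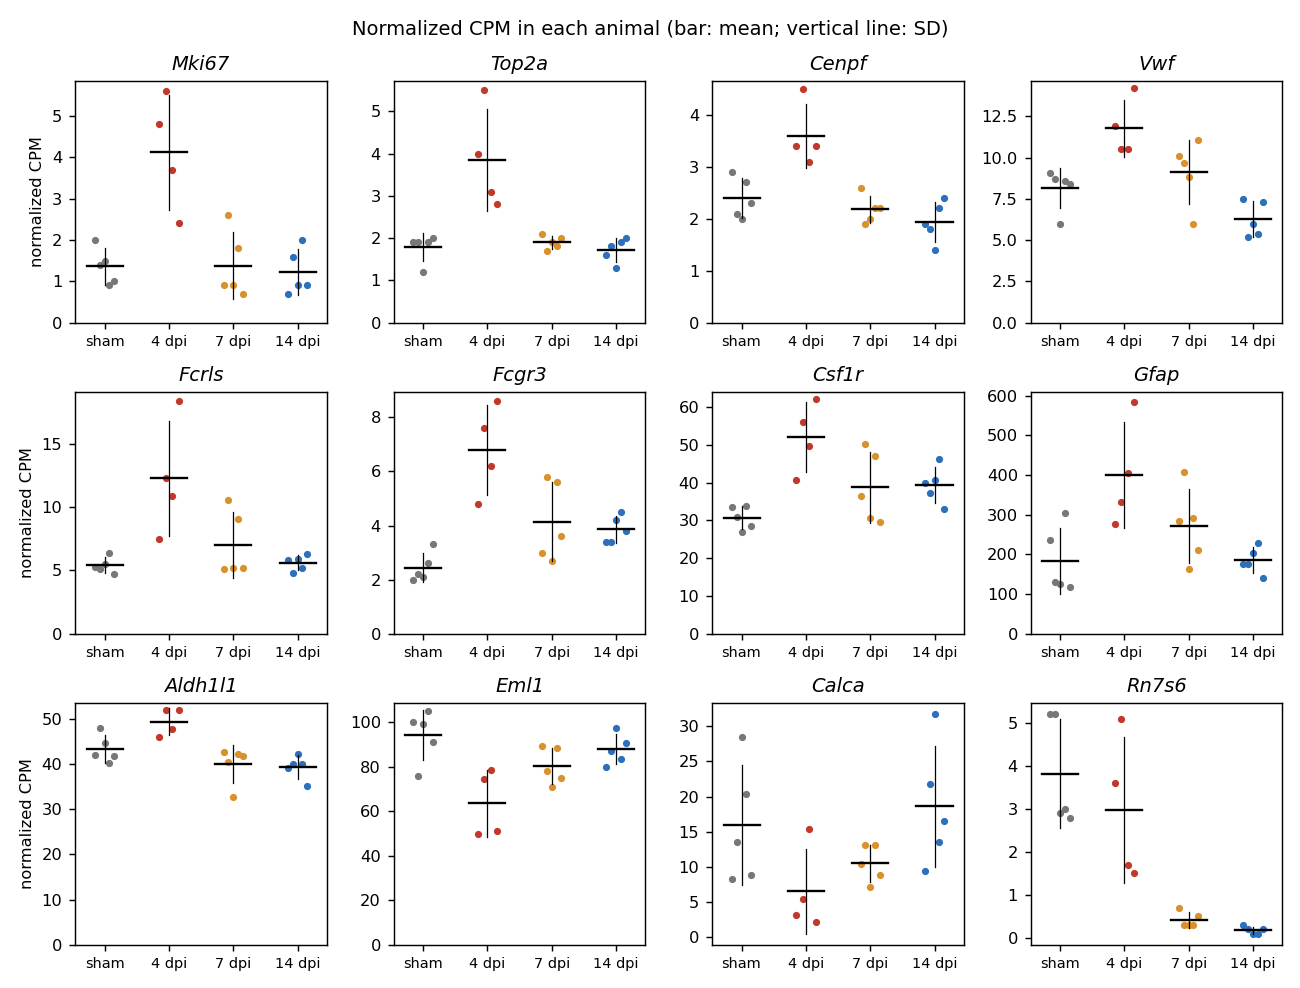
Normalized CPM (y) of 12 genes in each animal of the sham, 4, 7 and 14 dpi groups (x), with the group mean (bar) and SD (vertical line). Mki67, Top2a, Fcrls and Gfap were highest at 4 dpi and close to sham at 14 dpi, Fcgr3 and Csf1r kept 14 dpi means above sham, Eml1 and Calca were lowest at 4 dpi, and Rn7s6 was low at both 7 and 14 dpi.

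The 3 other genes named by rule among those lower at 14 dpi belong to no list. *Ngef*, a guanine nucleotide exchange factor downstream of ephrin receptors, was 21.4 to 27.7 at 4 dpi and 15.5 to 20.6 at 14 dpi (-0.44, limma adjusted p = 0.0946). *Adcyap1r1*, the receptor for the neuropeptide PACAP, was 147.9 to 169.8 and 127.6 to 134.9 (-0.25, limma adjusted p = 0.236). *Gm16630*, a long noncoding RNA, was 1.6 to 2 and 0.6 to 1 (-0.77, limma adjusted p = 0.0946). Lack of overlap was part of the rule.

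Myelin genes were slightly higher at 14 dpi relative to all genes. Of 18 myelin genes 14 lay above 0 with a median of 0.16, and 2 (11.1%, beside 3.9% of all genes) were nominally higher. With every animal scaled to an equal sum the list median was -0.38, beside -0.50 for all genes, so it stayed 0.12 above them. Set against all genes the median was 0.27 without A10-1, 0.074 without A9-2, and 0.052 with the motor neuron level of each animal as a covariate. *Trf*, the iron carrier transferrin that oligodendrocytes make, had 409.6, 561.4, 633.8 and 526.2 at 4 dpi and 639.5, 757.1, 741.6, 655.9 and 594 at 14 dpi, with 1 14 dpi animal inside the 4 dpi range (0.36, limma adjusted p = 0.383). *Hapln2*, a link protein at the nodes of Ranvier, differed by 0.29. The myelin proteins *Mbp* and *Mog* had 0.27 and 0.16, each within the spread. A9-2 had the lowest level of the myelin list, -0.53 relative to the sham mean on the log2 scale, and the range over the 14 dpi animals was -0.19 to 0.02. In the precursor and lineage list of 13 genes 3 were nominally lower (23.1%, beside 6.04% of all genes) and 1 higher (7.69%, beside 3.9%). The lower ones were *Cspg4* (-0.42), the NG2 proteoglycan of precursors and pericytes, *Ptprz1* (-0.29), a receptor phosphatase, and *Itpr2* (-0.19), a calcium channel of intracellular stores, and the higher one was *Bcas1* (0.37), a gene of newly formed oligodendrocytes. *Pdgfra*, the precursor growth factor receptor, had -0.01, and the list median was 0.07. Without A5-1 it lay 0.14 above that of all genes, and without A5-3 and A6-3 it was -0.0034 relative to them.

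Motor neuron markers varied widely among the 4 dpi animals. All 6 genes of the list had a log2 fold change above 0, with a median of 0.68. Relative to all genes the median was 1.24 without A10-1 and 0.31 without A10-4. *Slc5a7*, the choline transporter of cholinergic terminals, had 41.3, 55.7, 188.4 and 17.9 at 4 dpi and 73.9, 118.4, 228.6, 87.1 and 151.6 at 14 dpi (1.19, limma adjusted p = 0.401). *Prph*, an intermediate filament of motor and sensory neurons, had 12.2, 22.7, 78.4 and 6.4 against 21.8, 44.9, 81.4, 38.7 and 48 (1.12). *Chat*, the enzyme that makes acetylcholine, differed by 0.77. In each of these genes A10-1 stood high and A10-4 low at 4 dpi. The list level over its genes was -1.41 to 1.09 in the 4 dpi animals, wider than the -0.13 to 1.04 of the 14 dpi animals and the -0.75 to 0.74 of sham. Motor neurons lie ventral to the dissected laminae, and whether the amount of ventral horn in a sample moved with these values was not tested.

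*Calca*, which encodes calcitonin gene-related peptide of motor and sensory neurons, had 3.2, 5.4, 15.4 and 2.2 at 4 dpi and 9.5, 21.8, 31.7, 13.5 and 16.6 at 14 dpi, with A10-1 inside the 14 dpi range (1.67, limma adjusted p = 0.236). *Uts2*, which encodes urotensin II and was chosen after its values were seen, had 0.3, 1.1, 2.2 and 0.7 against 1.4, 3.9, 4, 3.2 and 3.4 (1.304, limma adjusted p = 0.248). Without A10-1 both rose, with limma adjusted p of 0.0133 for *Calca* and 0.0414 for *Uts2*. With the motor neuron level of each animal as a covariate, an alternative chosen after the values were seen, *Calca* stood at 0.93 (limma adjusted p = 0.128) and *Uts2* 0.81 (0.708). The peripheral nerve and root list, of which 3 of 7 genes were measured (*Calca*, *Prph* and *Isl2*) and none of its Schwann cell markers, had a median of 1.12. It was 1.78 without A10-1, 0.61 without A10-4, and 0.14 with the motor neuron covariate.

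Genes of neurons in general lay on both sides of 0. *Rbfox3*, which encodes the neuronal antigen NeuN, had 0.02, *Slc17a6* -0.0017 and *Slc32a1* -0.15, and the list of 17 identity and transmission genes had a median of -0.0017 with 1 nominally higher (5.88%, beside 3.9% of all genes) and 2 lower (11.8%, beside 6.04%). The median relative to all genes was -0.10 without A10-1 and 0.070 without A9-2. Its members included the cholinergic gene *Slc5a7* with 1.19 and ran down to *Syn1*, which encodes a synaptic vesicle protein, with -0.37. Growth-associated genes had a median of 0.06 over 15, or -0.47 at the same sum, beside -0.50 for all genes. Relative to all genes the list median was 0.021 without A10-4, 0.095 without A5-1 and 0.010 with the motor neuron covariate. Of these genes 4 (26.7%, beside 3.9% of all genes) were nominally higher, the microtubule genes *Stmn2* (0.35), *Tuba1a* (0.33), *Tubb3* (0.28) and *Stmn4* (0.27), with 1 lower (6.67%, beside 6.04%). *Stmn2* had 132, 141.7, 229.8 and 108.6 at 4 dpi and 166, 180.7, 228.3, 183.4 and 185.1 at 14 dpi, and here too A10-1 exceeded the other 4 dpi animals. *Vgf*, a secreted peptide precursor that neurotrophins induce, was 30.1 to 31.5 at 4 dpi and 33.2 to 48.4 at 14 dpi without overlap (0.36, limma adjusted p = 0.398), and remained under the sham mean of 55.3. *Arc*, an immediate early gene of active synapses, was higher (0.42), while the 16 immediate early genes had a median of 0.02, or relative to all genes -0.11 without A10-1 and 0.25 without A9-4. Neurotrophins and neuropeptides had a median of 0.15, or -0.31 at the same sum, beside -0.50 for all genes. The receptors *Ntrk2* and *Ntrk3* were nominally lower (-0.18 and -0.32), which is 12.5% of the list beside 6.04% of all genes. *Vgf* was nominally higher (6.25%, beside 3.9%). The median relative to all genes was 0.049 without A10-1 and 0.22 without A5-3.

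Of 16 growth and guidance genes that the study named, again chosen on these samples, 11 lay below 0 at 14 dpi with a median of -0.16. Relative to all genes this median was -0.059 without A6-2, -0.21 without A6-3, and -0.28 with *Rn18s-rs5* as a covariate. *Pax2* (-0.52), a transcription factor of inhibitory interneurons, *Notch3* (-0.43), a receptor of pericytes and smooth muscle, *Sox9* (-0.40), a factor of astrocytes, and *Plxna1* (-0.28), a semaphorin receptor, were nominally lower (25%, beside 6.04% of all genes), and none was higher. Perineuronal net and chondroitin sulfate genes had a median of -0.14 with 10 of 12 below 0. *Acan*, the main net proteoglycan, was nominally lower (-0.26) and *Hapln2* nominally higher (0.29), each 8.33% of the list. Over all genes these shares were 6.04% lower and 3.9% higher. Corrected for gene length and GC content, the list median was -0.023 and *Acan* had -0.14, which was not nominally lower. Collagen and matrix genes had -0.11 with 15 of 18 below 0, and relative to all genes -0.17 without A9-2 and -0.067 without A10-4. Glucocorticoid-responsive genes (-0.0014), circadian clock genes (-0.03) and heat shock genes (0.08) had medians within 0.1 of that of all genes. So did nuclear long noncoding RNAs (-0.01) and small nucleolar RNAs (-0.02). Some alternatives passed this limit. Relative to all genes, small nucleolar RNAs had -0.26 with *Rn18s-rs5* as a covariate and -0.17 to 0.13 with 1 animal left out. Nuclear long noncoding RNAs had 0.13 with the length and GC correction, and heat shock genes up to 0.15 with 1 animal left out.

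**Figure D3:**
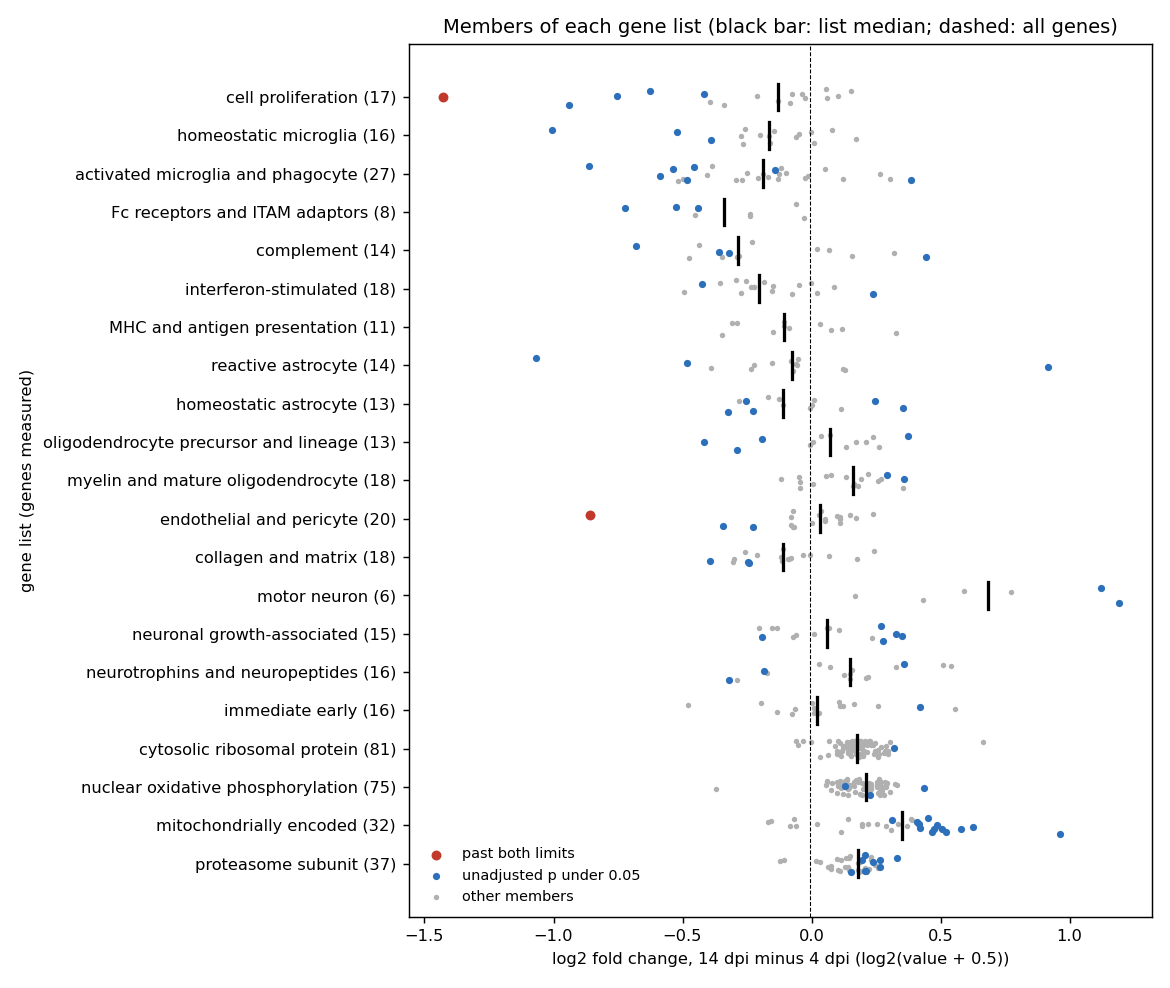
Log2 fold change of 14 dpi minus 4 dpi (x) for the measured members of 21 gene lists (y, number measured in parentheses), with the list median as a black bar and the median of all genes (-0.01) dashed. Mki67 and Vwf are the red points, the microglial, Fc receptor and complement lists lie to the left, and the ribosomal, mitochondrial and proteasome lists lie to the right. At the same sum these last lists have medians left of 0, but right of the median of all genes, which moves to -0.50.

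Genes of housekeeping complexes lay slightly higher at 14 dpi, and none of their members passed. Of 81 cytosolic ribosomal proteins 77 lay above 0 (median 0.18), of 75 nuclear genes of oxidative phosphorylation 74 (median 0.21), and of 37 proteasome subunits 35 (median 0.18). Without A9-2 the ribosomal median lay 0.088 above that of all genes. At an unadjusted p under 0.05, 1 ribosomal, 3 oxidative phosphorylation and 9 proteasome genes were higher, which is 1.23%, 4% and 24.3% of these lists beside 3.9% of all genes. Of 32 mitochondrially encoded genes 27 lay above 0 with a median of 0.35, and 13 (40.6%) were nominally higher. *mt-Co1*, a core subunit of cytochrome oxidase, had 9434.6, 10420.9, 11627.2 and 8220.4 at 4 dpi and 11147.5, 13074, 13644.9, 11754 and 11687.8 at 14 dpi (0.31). *mt-Rnr1*, the small mitochondrial ribosomal RNA, had 3562.6 to 7241.1 against 6231.8 to 25666 (0.96) and was highest in A5-3 and A6-3, the animals high in *Rn18s-rs5*. With an equal sum for every animal the median of all genes itself moved to -0.50, and the medians of the ribosomal, oxidative phosphorylation, proteasome and mitochondrial lists turned to -0.36, -0.32, -0.36 and -0.14. Relative to all genes these are still higher, by 0.14, 0.18, 0.14 and 0.36.

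Gene length moved with the direction of the difference. The slope of an animal's log2 values on gene length was -0.078 to -0.035 per doubling in the 14 dpi animals and -0.055 to 0.041 in the 4 dpi animals, where A9-4 and A10-1 were also below 0. Genes nominally lower at 14 dpi had a median transcript length of 5042 bases, those higher had 2538, and all genes had 3233. Corrected for length and GC content, the ribosomal list had a median 0.10 above that of all genes and the mitochondrial list 0.25, and *Mki67* stood at -1.29 (limma adjusted p = 0.114). The part of RNA quality in these differences was not tested.

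**Figure D4:**
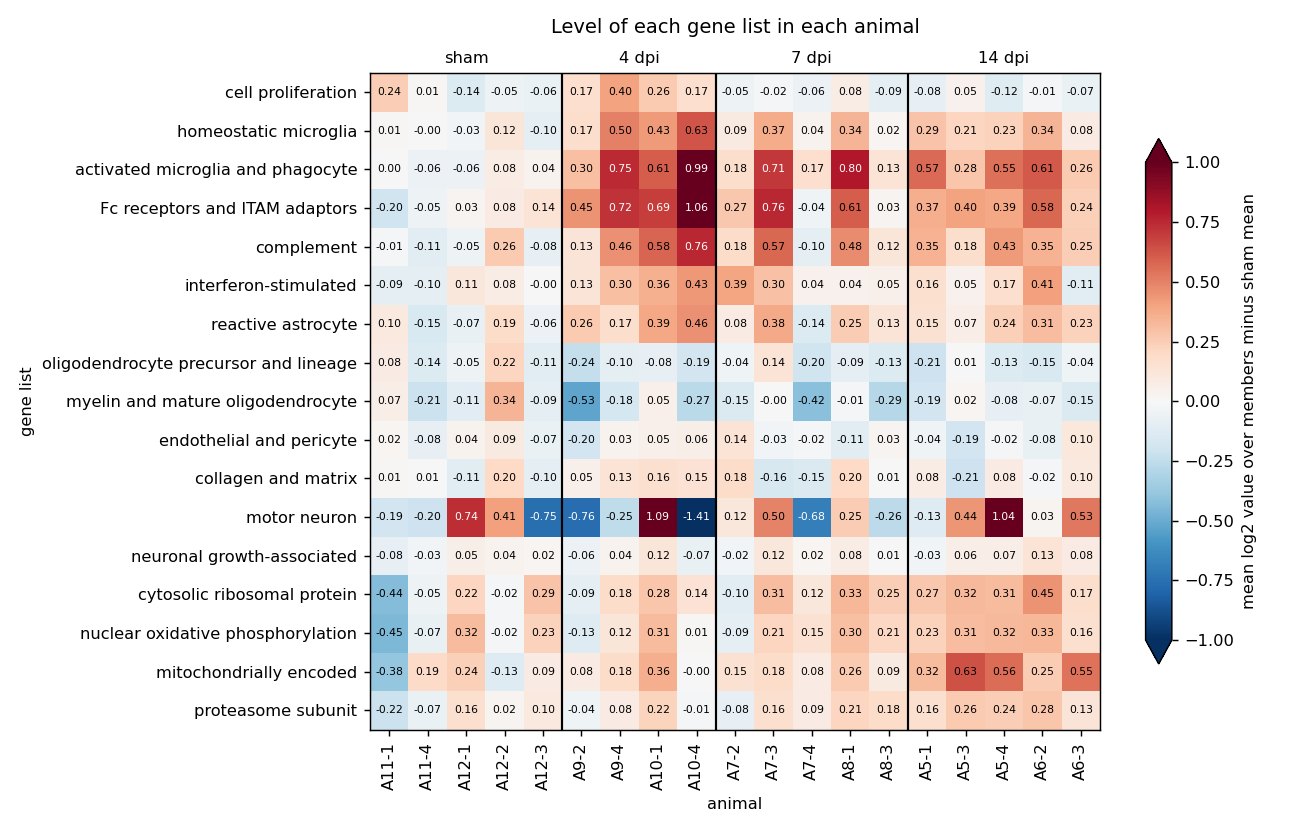
Mean log2 value over the members of 17 gene lists (y) minus the sham mean, in each animal of the sham, 4, 7 and 14 dpi groups (x), with the color scale ending at 1 in either direction. A10-4 was highest at 4 dpi in the activated microglia list (0.99) and lowest in the motor neuron list (-1.41), and A10-1 was highest at 4 dpi in the motor neuron (1.09), ribosomal (0.28) and mitochondrial (0.36) lists.

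The 10 genes named by rule among those higher at 14 dpi were required by that rule to have no overlap between the groups, and their differences were small. *Eml1*, a microtubule-binding protein, had 50, 74.5, 78.6 and 51.2 at 4 dpi and 80, 87.3, 97.5, 83.7 and 90.9 at 14 dpi (0.49, limma adjusted p = 0.129). Its means were 94.4 in sham and 80.4 at 7 dpi, and the 4 dpi animals overlapped both of these groups. *Ccnd1*, which encodes cyclin D1 of the G1 phase, had 15.2, 18.9, 19.7 and 18.6 against 22, 21.9, 28.1, 22 and 26.2 (0.40, limma adjusted p = 0.222), the opposite direction to the mitotic genes above. *Etv5*, a transcription factor downstream of growth factor receptors, had 25 to 31 against 31.9 to 41.9 (0.38). *Nrip3*, *Spock3*, a matrix proteoglycan, *Svip*, an inhibitor of protein degradation at the endoplasmic reticulum, *Lamtor3*, a lysosomal scaffold, *Atp5s*, a factor of ATP synthase, *Atxn10* and *Vmp1*, an autophagy protein, ranged from 0.19 to 0.44, with limma adjusted p of 0.247 to 0.334. Scaled to an equal sum, all 10 turned to between -0.04 and -0.35, still above the median of all genes.

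*Rn7s6* had the smallest p of all genes, and its identity is uncertain. It is annotated as a copy of 7SL RNA, the RNA of the signal recognition particle. It had 3.6, 5.1, 1.7 and 1.5 at 4 dpi and 0.3, 0.2, 0.1, 0.1 and 0.2 at 14 dpi. It fell by 2.23 on the log2 scale (±0.65, 95% interval, limma adjusted p = 0.00125), from a mean of 2.98 ± 1.70 (SD, n = 4) to 0.18 ± 0.084 (SD, n = 5). At 14 dpi the values were 1 to 3 rounding steps, at 7 dpi they were 0.3 to 0.7, and in sham 2.8 to 5.2. The 7SL genes *Rn7s1* and *Rn7s2* had means of 16585 and 16588 at 4 dpi and 14888 and 14889.6 at 14 dpi (-0.13 each), far above those of *Rn7s6*. Of the 261 words of 31 bases in the GENCODE M21 transcript of *Rn7s6*, 143 also occur in *Rn7s1*. How the authors' quantification split reads between these copies was not tested, so the fall of *Rn7s6* is a difference in assigned reads.

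Other RNAs of this kind were high in the animals with high ribosomal RNA. *AY036118*, which shares 923 bases of exon with *Rn18s-rs5*, differed by 2.63 and *Rn18s-rs5* by 2.00, and *Lars2*, a mitochondrial leucyl-tRNA synthetase gene, by 1.64, with overlapping animals in all 3. *Mir6240*, an annotated microRNA gene, ranged from 2 to 7.9 at 4 dpi and from 2.3 to 26.1 at 14 dpi.

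Red blood cell genes had a median of -0.02, with summed values of 5.6 to 32.8 at 4 dpi and 6.2 to 16.7 at 14 dpi. Meningeal genes had -0.07, with sums of 38.1 to 51.9 and 37.1 to 45.8. With 1 animal left out, the medians relative to all genes were -0.21 to 0.51 for red blood cell and -0.23 to -0.0058 for meningeal genes. All 4 ependymal genes measured lay below 0, with a median of -0.70, or -0.32 with *Rn18s-rs5* as a covariate. Among them *Tmem212* had 0.5 to 1.8 at 4 dpi and 0.1 to 0.4 at 14 dpi, while *Foxj1*, the defining factor of ciliated cells, differed by -0.21. The pituitary hormones *Prl*, *Gh* and *Pomc*, which spinal cord should lack, summed to 2.2 to 17.3 at 4 dpi, 1.2 to 7.7 at 14 dpi and 0.2 to 0.7 in sham, with a median of -0.92 between 14 and 4 dpi, or relative to all genes -0.43 without A9-4 and -1.15 without A10-1. *Pomc* had 7.4, 5, 0.4 and 2.8 against 0.8, 0.6, 3.2, 0.6 and 0.6 (-1.22, limma adjusted p = 0.398). None of 4 skeletal muscle genes was measured, nor were *S100a8* or *Cd3e* of blood leukocytes. The part of these cells in the differences above was not tested.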

How the data were processed

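RNA was extracted from the intermediate laminae of C5/C6, depleted of ribosomal RNA, and sequenced as single reads from a library kit that does not mark strand. The deposited values are a score: per the study's methods, the authors quantified genes with SALMON and Tximport on mm10, dropped low genes, normalized with edgeR (version 3.14.0 under R 3.4.1 in the submitters' processing notes) and gave normalized CPM, here rounded to 0.1. They are not counts, so no count model was used and the depth is unknown. Log2(value + 0.5) was fitted with limma 3.58.1 in R 4.3.3 over 29 animals with 6 group means and a trend on the mean value, and p-values were adjusted over 16995 genes. The 1498 genes with a mean under 1 stayed in. Named genes were the SDEGs without overlap, filled up to 10 per direction by the smallest p among genes without overlap and with a mean of at least 1, plus the study's early genes, the first 3 genes of each list and every list member called. Other genes named, mostly list members at an unadjusted p under 0.05, were picked once their values were known. The members and lists were chosen with earlier results of these data known, so lists are described by counts and medians only. Exact permutation tests used all 126 splits of the 9 animals. Script output was tested on simulated data. Promoter sequences came from RefSeq and transcripts were compared in GENCODE M21, some items are not reported here, and 16919 genes matched GENCODE M21 for length and GC content. Alternatives covered scaling, pseudocount, filters, the model, covariates and each animal left out.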

Additional observations from a re-analysis of the deposited data

Results flagged for a closer look

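Among the 107 genes run through the alternatives, 13 of 214 groups of 4 or 5 animals held an animal that lay far from the others by Dixon's ratio, which is 6.07%, and chance gives about 1 in 20. At 4 dpi, A9-4 was the highest for *AY036118* (23050.4), *Lars2* (90043.9) and *Mir6240* (7.9). A10-4 was the highest at 4 dpi for *Notch3* (16.3) and *Vim* (21), and A10-1 the lowest for *Slc32a1* (80.9). At 14 dpi, A5-3 was the highest for *Atp5s* (12.2) and the lowest for *Gm16630* (0.6). A5-4 was the highest at 14 dpi for *Pomc* (3.2) and *Isl2* (3.8), A6-2 for *Inpp5d* (6.7) and A6-3 for *Pecam1* (17), and A5-1 was the lowest for *Uts2* (1.4). A9-4 also had the highest *Rn18s-rs5* of the 4 dpi animals, and the part of ribosomal RNA in these values was not tested.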

How the results depend on the processing

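*Rn7s6* was called under every alternative run. The number of genes that fell was 1 in the fit of the 9 animals alone, with quantile normalization, with no trend, with a pseudocount of 0.05, with 18S ribosomal RNA as a covariate, with the length and GC correction, without the 14 dpi animals high in 18S ribosomal RNA, and with the motor neuron level as a covariate, which was chosen after seeing the data. In each of these *Mki67* and *Vwf* were not called, although their log2 fold changes were below 0 in 24 of 24 settings, at -1.86 to -1.20 and -1.37 to -0.71, and *Vwf* was also not called with median centring or with a fold limit of 2. The number was 11 with weights per animal, where 1 gene rose, and 119 at the same sum in every animal, where 4 rose. With 1 animal left out, 0 to 5 genes rose and 1 to 9 fell, the highest of both without A10-1. The cause was not tested. That scaling moved the median of all genes to -0.50, and 32 of 107 named genes turned from higher to lower: *Eml1* -0.045, *Ccnd1* -0.13, *Etv5* -0.15, *Atxn10* -0.34, *Nrip3* -0.25, *Svip* -0.29, *Atp5s* -0.068, *Spock3* -0.26, *Vmp1* -0.35, *Lamtor3* -0.22, *Lag3* -0.32, *Arc* -0.10, *Vgf* -0.17, *Stmn2* -0.19, *Spp1* -0.15, *S100b* -0.19, *Glul* -0.29, *Trf* -0.18, *Bcas1* -0.17, *Tubb3* -0.26, *mt-Co1* -0.23, *Tmem119* -0.42, *Mbp* -0.27, *Mog* -0.38, *Pecam1* -0.41, *Rbfox3* -0.51, *Cd59a* -0.075, *Hapln2* -0.24, *Stmn4* -0.26, *Tuba1a* -0.21, *Ifit2* -0.26 and *C3* -0.37. Quantile normalization gave *mt-Rnr2* -0.47, *mt-Co1* -0.19 and *Lars2* 0, and the 18S covariate gave *Fcgr2b* 0.048, *C4b* 0.10, *Mir6240* -0.080, *P2ry12* 0.041, *Vim* 0.24 and *Slc17a6* 0.016. Weights per animal gave *Pdgfra* 0.0038, *Rbfox3* -0.0014 and *Slc17a6* 0.0052, and the length and GC correction gave *Pdgfra* 0.085. Without the 14 dpi animals high in 18S, *P2ry12* had 0.019, *Vim* 0.079, *Rbfox3* -0.054 and *Slc17a6* 0.061, and with the motor neuron covariate *Slc17a6* had 0.15 and *Isl2* -0.16. Leaving out 1 animal gave *Lag3* -0.065 to 0.18 (below 0 without A9-2, A5-1 or A5-3), *Fcgr2b* -0.25 to 0.058 (above 0 without A10-1 or A10-4) and *C4b* -0.47 to 0.068 (above 0 without A10-4). Genes close to 0 also changed sign in this way, with ranges of *Tmem119* -0.054 to 0.17, *Pdgfra* -0.059 to 0.056, *Slc17a6* -0.11 to 0.096, *C3* -0.14 to 0.31, *P2ry12* -0.11 to 0.0086, *Vim* -0.15 to 0.089, *Cldn5* -0.19 to 0.026, *Rbfox3* -0.024 to 0.081, and *Prl* -0.96 to 0.054 (above 0 without A9-4). No paired analysis was possible because the 2 groups share no replicate number in the labels. Values rounded to 0.1 limit what can be seen in genes near 1.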
